A study of Mus musculus with 6 samples.

Results

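The guanylate-binding protein (GBP) genes Gbp2, Gbp2b, Gbp3 and Gbp7 and the immunity-related GTPase (IRG) genes Irgm1, Irgm2 and Igtp were followed in mouse embryonic stem cells after microRNA transfection. All probe sets that the platform annotation gives to exactly 1 of these genes were taken, which gave 9 probe sets for 7 genes, out of 45101 probe sets on the array and 18194 genes with a probe set of their own. The genes were chosen by their response, because as a group they were lower with the microRNA mimics. Their difference between the groups is therefore described below without a test and supports nothing by itself.

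The study transfected a Dicer-deficient line, written 27H in the sample titles and 27H10 in the study's title, kept undifferentiated, and measured mRNA 24 h later. Dicer is the enzyme that cuts mature microRNAs from their precursors, and its loss is known to leave embryonic stem cells without most mature microRNAs. The 3 mimic samples are Dicer -/- cells given synthetic mimics of the mmu-miR-290 cluster (miR-290 mimics), and the 3 samples they are set against are Dicer -/- cells of the same line given an siRNA to Renilla luciferase (control siRNA). All 6 come from 1 line, which mimics of the cluster were used and at what dose is not given in the sources used here, and no untransfected sample was analysed here, so that a difference cannot be assigned to the mimics or to the control siRNA from these arrays.

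GBPs are large GTPases of the dynamin superfamily, and IRGs are smaller GTPases. Both families are classical targets of interferon gamma, best known from macrophages and fibroblasts. There they gather on the vacuoles of parasites and bacteria, break them open and hand their contents to autophagy proteins and inflammasomes. Irgm1, Irgm2 and Igtp belong to the regulatory IRGs, which sit on the cell's own membranes and keep other IRGs inactive there. Interferon gamma acts through the receptor kinases Jak1 and Jak2, and its target promoters can hold gamma-activated sites, while interferon regulatory factors, Irf9 among them, act at interferon-stimulated response elements.

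The promoters of the 7 genes were searched for the cores of both elements, since sequence was not used by the rule that picked the genes. The windows are those of RefSeq for GRCm38.p6, from 250 bases before to 50 bases after each annotated transcript start, and 8 windows were given for the 7 genes because Gbp3 has 2 starts. The response element core was written as GAAANNGAAA and the gamma-activated core as TTCNNNGAA, on either strand and with overlaps allowed. All 7 genes held a response element core, in 7 of their 8 windows, and the second Gbp3 window held none. The core is not particular to them, since 5 of 8 other GBP, IRG and related GTPase genes with a window held one (62.5%). Of all 32851 promoter windows 3.44% held one, and of all 27025 genes with a window 3.99%. The stretches that hold the cores are shown with 20 bases on each side, read 5′ to 3′ on the strand of the gene, with the cores in capitals; a core on the other strand reads as its reverse complement.
Gbp7 (chr3:142530263-142530312, + strand): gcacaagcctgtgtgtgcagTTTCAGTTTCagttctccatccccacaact
Gbp3 (chr3:142559979-142560034, + strand): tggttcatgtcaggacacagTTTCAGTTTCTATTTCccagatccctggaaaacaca
Gbp2b (chr3:142594690-142594739, + strand): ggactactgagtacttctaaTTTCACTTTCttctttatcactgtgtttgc
Gbp2 (chr3:142620584-142620633, + strand): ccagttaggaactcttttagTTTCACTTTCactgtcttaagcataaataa
Irgm1 (chr11:48871415-48871470, - strand): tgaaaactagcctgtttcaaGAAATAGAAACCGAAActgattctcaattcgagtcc
Igtp (chr11:58199502-58199551, + strand): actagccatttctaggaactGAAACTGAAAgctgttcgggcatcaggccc
Irgm2 (chr11:58214893-58214942, + strand): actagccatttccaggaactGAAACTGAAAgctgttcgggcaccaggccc

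In the plot of motif positions, the cores of 6 genes end between 15 and 55 bases before the start, and that of Gbp2b ends 128 bases before it. Gbp3 and Irgm1 each hold 2 overlapping cores. The 50-base stretches of Igtp and Irgm2, which are neighbours in the genome, are identical at 48 bases. Gbp2 and Gbp2b share 1 version of the core (GAAAGTGAAA), and Gbp3, Gbp7, Igtp and Irgm2 share another (GAAACTGAAA).

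**Figure D1:**
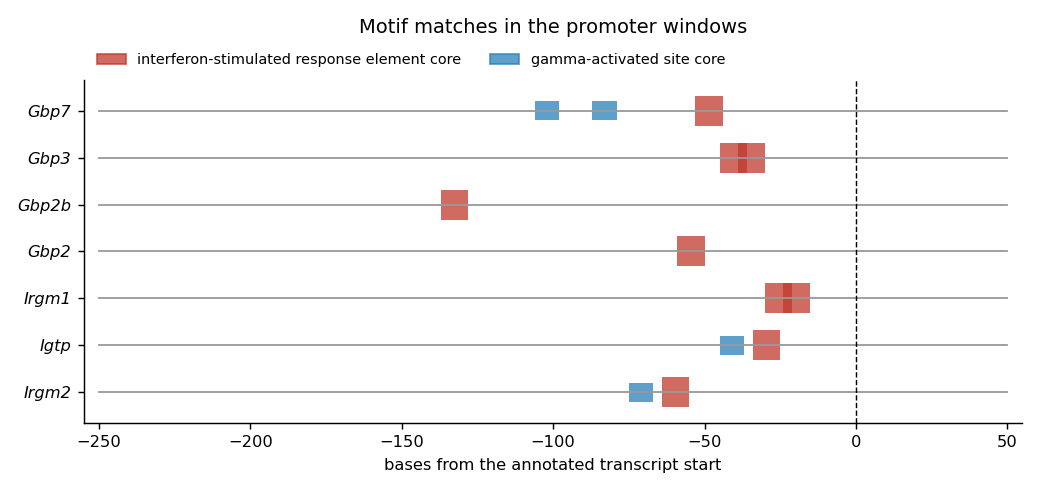
Positions of the motif matches in the promoter windows of the 7 genes, in bases from the annotated transcript start (dashed line). Grey lines are the 300-base windows, tall red boxes are response element cores and low blue boxes are gamma-activated cores; 7 genes have a red box and 3 also have a blue one.

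The gamma-activated core was found in 3 of the 7 genes, Gbp7, Igtp and Irgm2. Of all genes with a window 9.55% held one and 0.54% held both cores. By window the shares were 8.3% and 0.454%. Of the 8 other GBP, IRG and related GTPase genes with a window, 4 held both cores (50%). Gbp7 and Igtp are shown whole, because 1 gene of each family with both cores lets their spacing be seen; capitals mark the cores of either kind. In Gbp7 the 2 gamma-activated cores end 98 and 79 bases before the start, ahead of the response element core. In Igtp the gamma-activated core ends 37 bases before the start, and the response element core ends 25 bases before it. A match is a stretch of letters and not a binding site shown in these cells.
Gbp7 (chr3:142530086-142530385, + strand): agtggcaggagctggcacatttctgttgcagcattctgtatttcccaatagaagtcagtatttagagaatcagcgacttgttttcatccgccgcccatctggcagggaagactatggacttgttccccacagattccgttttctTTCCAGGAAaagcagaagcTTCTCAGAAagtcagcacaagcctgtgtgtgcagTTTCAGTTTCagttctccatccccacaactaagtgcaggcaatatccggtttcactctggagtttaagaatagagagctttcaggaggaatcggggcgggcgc
Igtp (chr11:58199306-58199605, + strand): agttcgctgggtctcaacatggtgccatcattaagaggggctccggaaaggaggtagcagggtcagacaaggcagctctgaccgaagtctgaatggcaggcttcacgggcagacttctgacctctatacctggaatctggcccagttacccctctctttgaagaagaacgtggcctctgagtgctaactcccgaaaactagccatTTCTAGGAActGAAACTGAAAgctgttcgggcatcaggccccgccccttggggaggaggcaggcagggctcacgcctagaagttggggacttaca

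The 3p arms of the miR-290 cluster that were found in RefSeq are shown so that their seeds, bases 2 to 8 in capitals, can be compared. Which of them were given as mimics is not stated. The RefSeq table gave 6 mature 3p arms of the cluster on chromosome 7, with GRCm38.p6 coordinates. No miR-292 arm was among them, so these may not be all the 3p arms of the cluster, nor all that share a seed. The seed is the same in 3 of them, miR-291a-3p, miR-294-3p and miR-295-3p. The seeds of miR-290a-3p and miR-291b-3p differ from it in their last base, and miR-293-3p has a shifted one. Matches to these seeds in the transcripts of the 7 genes were not analysed here.
mmu-miR-291a-3p (chr7:3218968-3218989, + strand): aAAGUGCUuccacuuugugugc
mmu-miR-294-3p (chr7:3220691-3220712, + strand): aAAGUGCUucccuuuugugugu
mmu-miR-295-3p (chr7:3220815-3220837, + strand): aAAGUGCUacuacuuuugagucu
mmu-miR-290a-3p (chr7:3218674-3218697, + strand): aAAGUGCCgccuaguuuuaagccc
mmu-miR-291b-3p (chr7:3219529-3219550, + strand): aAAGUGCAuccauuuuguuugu
mmu-miR-293-3p (chr7:3220390-3220411, + strand): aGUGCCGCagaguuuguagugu

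Values below are linear intensities of the deposited table, 1 per probe set and array; where a gene has 2 probe sets, the one with the higher mean log2 intensity stands for it. Fold changes are mimics over control siRNA on the log2 scale, with a standard error (SE) from limma, a linear model with spreads moderated over all probe sets. A probe set was called when its Benjamini-Hochberg adjusted p over all 29167 tested probe sets was under 0.05. The median intensity of the arrays lay between 41.7 and 44.9, and the arrays correlated at 0.963 to 0.969 within groups and at 0.959 to 0.964 between groups on the log2 scale. The 6 embryonic stem cell markers were present on all arrays (Pou5f1 at 10716 or more) and 0 of 6 were called. Esrrb and Zfp42 had all mimic arrays above all control arrays (log2 fold changes 0.23 and 0.12). With limma's prior let vary with signal and fitted robustly, Esrrb was called higher (limma adjusted p = 0.0158), as were 6.2% of all genes. The labels do not say whether the samples of a group were separate cultures, so the spread behind each p-value may be technical. With 3 arrays a group, precision is limited.

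All 9 probe sets of the 7 GTPase genes had their 3 mimic values below their 3 control values, which 15.5% of all tested probe sets did. The plot of intensities by array shows the gap for each probe set. In these bulk samples, fewer cells with a transcript and less of it per cell cannot be told apart.

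**Figure D2:**
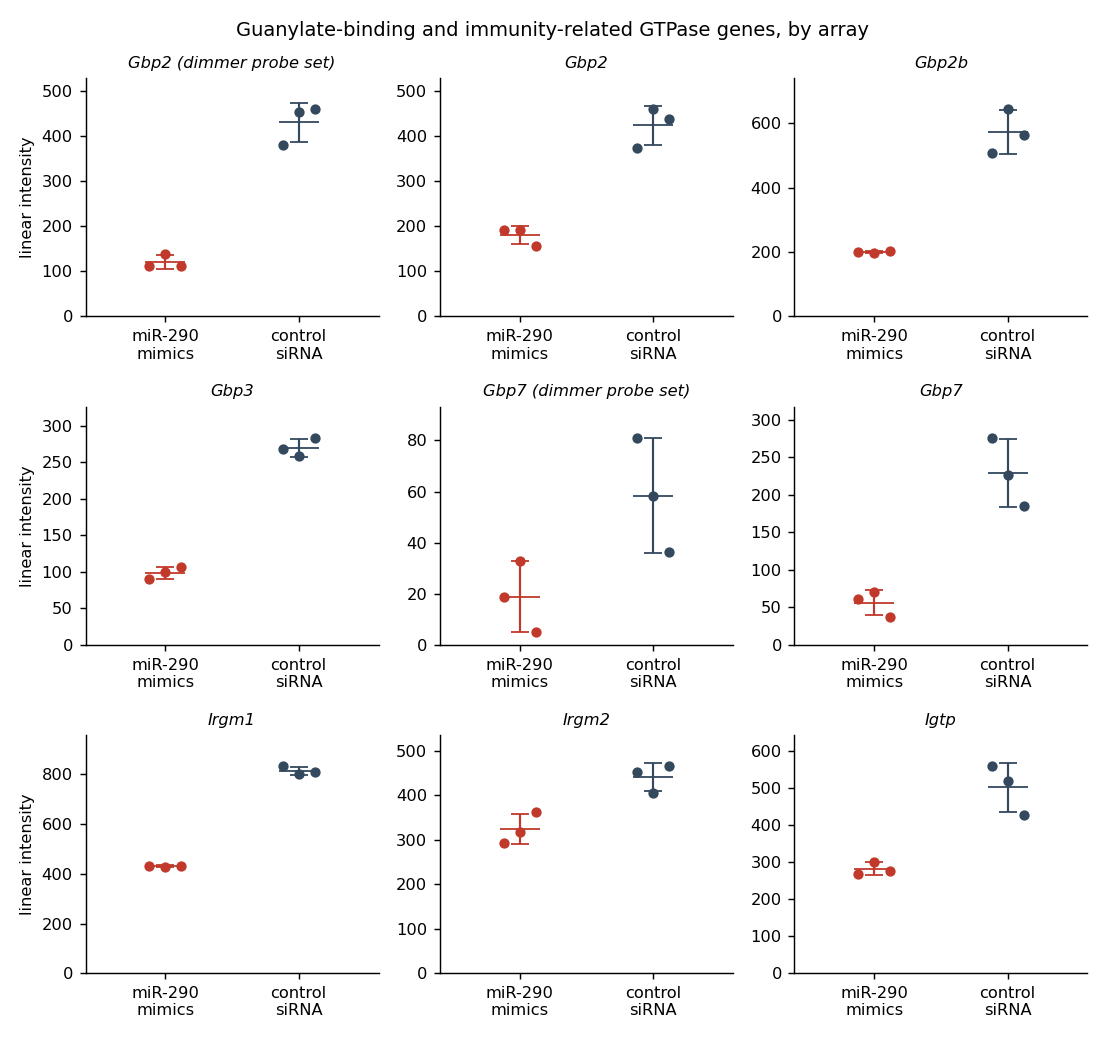
Linear intensity (vertical axes, from 0) of the 9 probe sets of the 7 GTPase genes in the miR-290 mimic arrays (red, left) and the control siRNA arrays (dark, right). Points are arrays and bars are the mean ± SD of 3; no mimic point reaches a control point in any panel.

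Among the GBPs, Gbp7, which has been linked to assembly of the phagocyte oxidase, had intensities of 60.8, 70.4 and 37.7 with the mimics, against 276, 227 and 186 with the control siRNA. The highest mimic value is well under the lowest control value, although both groups spread widely. The averages were 56.3 ± 16.8 with the mimics and 229 ± 45.1 with the control siRNA (SD, n = 3 each), a log2 fold change of -2.06 ± 0.28 SE. The dimmer Gbp7 probe set gave 18.8, 33.0 and 4.97 with the mimics, against 81.0, 58.2 and 36.2 with the control siRNA. Its groups are close to touching, and 1 mimic array lies under 16, where signal was not separated from background.

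Gbp2b, the gene long called Gbp1 in the mouse, had 199, 196 and 203 with the mimics, against 507, 643 and 565 with the control siRNA. The highest value was 1.04 times the lowest among the mimic arrays and 1.27 times among the control arrays, and the groups lie far apart. Its log2 fold change was -1.51 ± 0.11 SE. Gbp3, its neighbour, had 89.5, 99.6 and 106 with the mimics, against 267, 258 and 283 with the control siRNA (log2 fold change -1.46 ± 0.095 SE). Taken from the means of the log2 values, the mimic level was 35.1% of the control level for Gbp2b and 36.5% for Gbp3.

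Gbp2, which restricts Toxoplasma in mouse cells, had 191, 192 and 157 with the mimics, against 374, 458 and 436 with the control siRNA, a log2 fold change of -1.24 ± 0.13 SE. This probe set is of the kind whose probes may also match related transcripts. The other Gbp2 probe set, without that mark, had 111, 138 and 113 with the mimics, against 381, 453 and 460 with the control siRNA. Its log2 fold change was larger in size, at -1.84 ± 0.13 SE, and the groups lie far apart in both. The GBP genes are close copies of each other, so how much signal their probe sets share is uncertain.

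Among the regulatory IRGs, Irgm1, which is needed for resistance to mycobacteria in mice, had 430.5, 426 and 432 with the mimics, against 830.0, 799.9 and 809 with the control siRNA. Both groups were tight, with 429.5 ± 3.27 with the mimics and 813 ± 15.5 with the control siRNA (SD, n = 3 each). Its log2 fold change was -0.92 ± 0.065 SE. Igtp, also named Irgm3, had 269, 301 and 276 with the mimics, against 558, 519 and 428 with the control siRNA (-0.82 ± 0.13 SE). Control replicate 3 lies apart from the other control values but above each mimic value.

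Irgm2, which acts at the Golgi, had 294, 318 and 361 with the mimics, against 452, 406 and 465 with the control siRNA. The highest mimic array lies closer to the lowest control array than to the lowest mimic array. The averages were 324 ± 34.2 with the mimics and 441 ± 30.8 with the control siRNA (SD, n = 3 each), a log2 fold change of -0.45 ± 0.11 SE. It was the least lowered of the 7, and 12.6% of all tested genes had a log2 fold change at or below it.

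The 4 GBPs had a median log2 fold change of -1.48 and the 3 IRGs one of -0.82. Each GBP was lowered more than each IRG. The mean log2 intensity of the GBPs minus that of the IRGs was -1.43, -1.43 and -1.72 on the mimic arrays, against -0.79, -0.61 and -0.69 on the control arrays. The gap between the families was wider on each mimic array than on any control array. This describes the contrast on which the genes were picked, and no test was made of it.

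Of the 9 probe sets 6 were called lower, as were 0.946% of all tested probe sets, while 0.343% of all were called higher. Counted by gene 5 of the 7 were, as were 1.38% of all genes. The 2 genes not called were Irgm2 and Igtp. Limma's prior was also let vary with signal and fitted robustly (the level-dependent robust prior). With it 8 of the 9 probe sets were called lower, beside 6.56% of all, and 7 of 7 genes, beside 9.43% of all. Since the genes were picked on this contrast, nothing is read from these counts. Without any 1 of the 6 arrays the constant prior called 0 of the 7, and the level-dependent robust prior 6 or 7. The median log2 fold change of the 7 was -1.24, beside -0.01 for all tested genes, and 1.37% of all genes lay at or below that median.

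**Figure D3:**
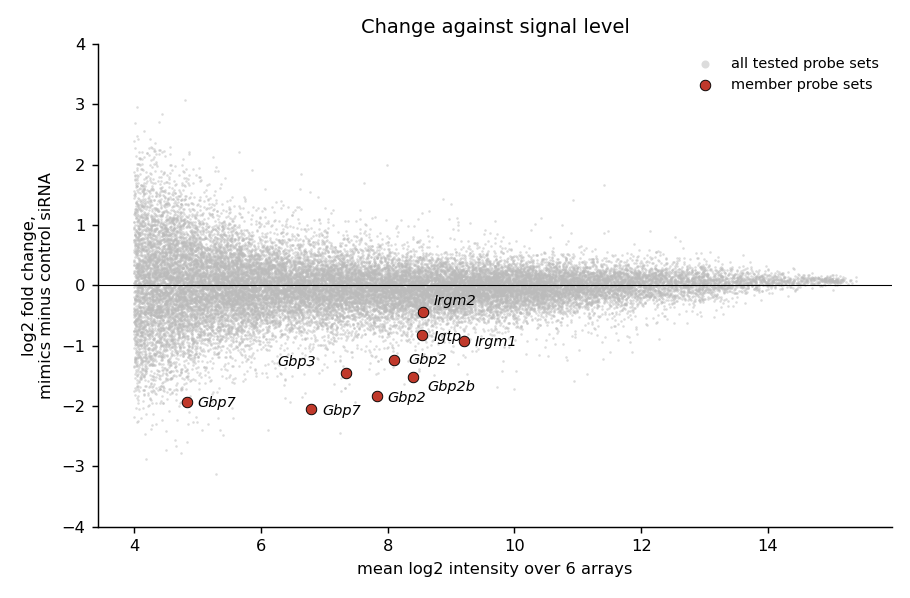
Log2 fold change, miR-290 mimics minus control siRNA (vertical axis), against mean log2 intensity over the 6 arrays (horizontal axis) for the 29167 tested probe sets (grey) and the 9 probe sets of the GTPase genes (red, named). The red points lie between -0.45 and -2.06, and the dimmer Gbp7 probe set sits at low signal where the grey cloud is wide.

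The genes lie in 3 places. Gbp7, Gbp3, Gbp2b and Gbp2 follow each other on chromosome 3 with no other protein-coding gene between them in RefSeq, with Gbp5 before and Kyat3 after. Igtp and Irgm2 are adjacent on chromosome 11, and Irgm1 lies elsewhere on that chromosome. The nearest 3 tested genes on each side of each place, 18 in all, were taken by position alone, to see whether their surroundings moved too. Of these 0 were lower and 1 was higher, Zfp692, beside 1.38% and 0.456% of all genes. The 18 neighbours had a median log2 fold change of -0.14. At an unadjusted p under 0.05 in limma there were 4. The share of all genes at that bound is not given here, so nothing is read from this count or from later ones of its kind. The level-dependent robust prior called 1 lower and 1 higher, beside 9.43% and 6.2% of all genes.

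Kyat3, which follows Gbp2 directly and encodes an aminotransferase, had 514, 503 and 386 with the mimics, against 443, 503 and 441 with the control siRNA (log2 fold change 0.01 ± 0.14 SE, limma adjusted p = 0.981). Its groups overlap fully. The general transcription factor gene Gtf2b, the next one, gave -0.08 (limma adjusted p = 0.679). Zfp692 had 296, 284 and 294 with the mimics, against 193, 184 and 166 with the control siRNA, and rose by 0.69 on the log2 scale (± 0.086 SE, limma adjusted p = 0.0444). It is the first tested gene after Igtp and Irgm2 on chromosome 11, and its difference has the opposite sign to theirs.

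On the other side of the GBP genes all 3 tested neighbours had values below 0. Pdlim5, which encodes a scaffold protein of the cytoskeleton, had 625, 669 and 668 with the mimics, against 880.4, 961 and 915 with the control siRNA, a log2 fold change of -0.49 ± 0.076 SE. Its limma adjusted p was 0.0580, and 0.00260 with the level-dependent robust prior. Its groups do not overlap, and it was the 1 neighbour called lower with that prior. Rap1gds1 gave -0.30 (limma adjusted p = 0.0961), also without overlap. Bmpr1b, a receptor gene near the floor, gave -1.22 (limma adjusted p = 0.353) with overlapping groups. These 5 neighbours and Zfp692 were picked for mention after their values were seen.

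Of 21 further GBP, IRG and related GTPase genes, 12 lacked a probe set annotated to them alone and 6 fell under the filter on low values (a mean log2 intensity of at least 4). The 3 that were tested were Gbp6, Irgq and Iigp1, and 0 were called (limma; 1 at an unadjusted p under 0.05, and 1 with the level-dependent robust prior). Irgq, an IRG-related gene, had 105, 93.6 and 128 with the mimics, against 165, 185 and 179 with the control siRNA (log2 fold change -0.71 ± 0.14 SE, limma adjusted p = 0.0767). Iigp1, an IRG that coats parasite vacuoles, was near the floor, at 22.8 to 27.9 with the mimics and at 4.51 to 27.0 with the control siRNA. The IRG gene Ifi47 and the interferon-induced dynamin-like genes Mx1 and Mx2 were among those below the filter. The log2 fold change of Iigp1 was 0.81 with all arrays and -0.02 without control replicate 3.

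The genes that carry the interferon gamma signal were next, as the pathway upstream of GBPs and IRGs. Of 15 tested, 1 was lower and 0 were higher, beside 1.38% and 0.456% of all genes, and the list had a median log2 fold change of -0.40. The 1 lower gene was Jak2, the receptor-bound kinase, with 192, 187 and 140.5 with the mimics, against 411, 382 and 433 with the control siRNA. Jak2 fell by 1.25 on the log2 scale (± 0.15 SE, limma adjusted p = 0.0429), with groups far apart, and its dimmer probe set fell by 1.57. With the level-dependent robust prior 4 were lower and 0 higher, beside 9.43% and 6.2% of all genes.

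At the highest levels of that list, the phosphatase gene Ptpn2, which switches off Jak1, gave 0.07 (limma adjusted p = 0.644), and the feedback inhibitor gene Socs3 gave 0.08 (limma adjusted p = 0.645). The groups of both overlapped. The interferon gamma gene itself, Ifng, was below the filter. The Socs3 probe sets disagreed, since a dimmer one gave -0.52 (called lower with the level-dependent robust prior).

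Of 11 genes of type I interferon signalling 1 was lower and 0 were higher, beside 1.38% and 0.456% of all genes. This was Irf9, the DNA-binding subunit of the complex that binds response elements. It had 129, 121 and 136 with the mimics, against 363, 297 and 351 with the control siRNA, and it fell by 1.38 on the log2 scale (± 0.11 SE, limma adjusted p = 0.0277). The adaptor gene Mavs and the kinase gene Tbk1 gave 0.02 and -0.03 (limma adjusted p = 0.965 and 0.889). The list had a median of -0.03.

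Other genes known to be induced by interferon gamma, though not all of them by it alone, came next. Several of them serve antigen processing. Of 16 tested, 6 were lower and 0 were higher, beside 1.38% and 0.456% of all genes. Their median log2 fold change was -0.92, and each of the 16 had a value below 0. In 14 all mimic arrays lay below all control arrays, as in 15.5% of all tested probe sets. The 14 are counted by the brightest probe set of each gene and the 15.5% over all probe sets, so the units differ. With the level-dependent robust prior 13 were lower and 0 higher, beside 9.43% and 6.2% of all genes. The list was put together with earlier results of these data known, so its direction is not independent evidence. The same holds for its difference from the list of genes that respond mainly to type I interferon, which was not tested.

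Psmb8, a catalytic subunit of the immunoproteasome, had 70.9, 87.3 and 44.4 with the mimics, against 382, 374 and 316 with the control siRNA, a log2 fold change of -2.45 (± 0.27 SE, limma adjusted p = 0.0390). Xaf1, an interferon-induced gene that promotes apoptosis, had 1749, 1725 and 1805 with the mimics, against 3974, 4224 and 4134 with the control siRNA (-1.22 ± 0.069 SE, limma adjusted p = 0.0196). Tapbp, which loads peptides on class I molecules, gave -1.06 ± 0.096 SE (limma adjusted p = 0.0292). For these genes the arrays of a group lie close together beside the distance between the groups. Rtp4, an interferon-induced chaperone of receptors, had 18.6, 14.4 and 8.63 with the mimics, against 132, 104 and 113 with the control siRNA. Its log2 fold change was -3.13 ± 0.30 SE (limma adjusted p = 0.0340), and -2.15 with an offset of 16, since the mimic values are near the floor. The other 2 that were lower, named here after their values were seen, were Ifi35 (-0.94) and Parp14 (-0.90). The calls of Jak2, Irf9, Rtp4, Psmb8, Xaf1 and Tapbp were all lost with the constant prior when any 1 array was left out (limma adjusted p of 0.0991 to 0.145).

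**Figure D4:**
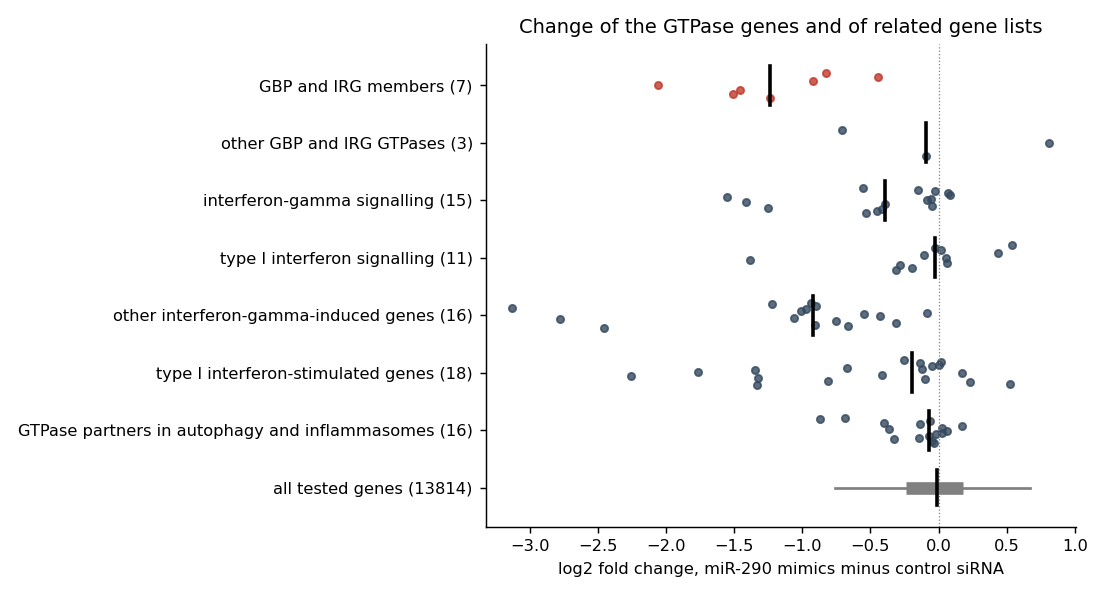
Log2 fold change, miR-290 mimics minus control siRNA, of the 7 GTPase genes (red) and of the tested genes of 6 related lists (dark points; number tested in brackets), with the median of each as a black line. The bottom row gives all 13814 tested genes (thick bar, 25th to 75th percentile; thin line, 5th to 95th percentile); the medians of the GTPase genes and of the other interferon-gamma-induced genes are -1.24 and -0.92.

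Genes that respond mainly to type I interferon were set beside them. Of 18 tested, 0 were called in limma, with 6 at an unadjusted p under 0.05. With the level-dependent robust prior 4 were lower and 0 higher, beside 9.43% and 6.2% of all genes. Their median was -0.20, and 13 of the 18 had values below 0. In 8 of the 18, again by the brightest probe set of each gene, all mimic arrays lay below all control arrays. Over all tested probe sets, a different unit, the share was 15.5%. In 1, Ddx58, all mimic arrays lay above all control arrays (log2 fold change 0.17, limma adjusted p = 0.293). Ifit2 gave 0.52 with overlapping groups (limma adjusted p = 0.357). Both were named after their values were seen. Named after their values were seen, Ifit1 and Oasl1, both antiviral genes, gave -1.33 and -1.33 (limma adjusted p = 0.0666 and 0.0525) and were called with that prior. The dimmer Ifih1 and Oasl2 gave -1.76 and -2.26 (limma adjusted p = 0.249 and 0.348). At the highest levels of the list, the membrane protein genes Ifitm1 and Ifitm3, which block virus entry, had averages of 17387 ± 737 and 16332 ± 429 with the mimics, against 17986 ± 839 and 17918 ± 401 with the control siRNA (SD, n = 3 each; limma adjusted p = 0.768 and 0.347). Response element cores stood in the promoters of 11 of the 18 genes of this list that have a window, a share of 61.1%. Among the other interferon-gamma-induced genes they stood in 3 of 15 (20%). The genes with a window are not the same set as the genes tested. Isg15, for one, is counted with a core but lacks a probe set annotated to it alone.

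The last list held partners of the GTPases in autophagy and inflammasomes. Of 16 tested, 0 were called in limma, with 3 at an unadjusted p under 0.05. The level-dependent robust prior called 2 lower and 1 higher, beside 9.43% and 6.2% of all genes. The ubiquitin-like autophagy genes Map1lc3b and Gabarapl2 gave 0.06 and 0.17 (limma adjusted p = 0.676 and 0.230). The mimic values of Gabarapl2 all lie above its control values, and it was the 1 higher gene with the level-dependent robust prior. The list had a median of -0.07. Response element cores were in 0 of the 13 genes with a window.

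Markers of cells rich in these GTPases were read as well. Of 8 macrophage and leukocyte markers 5 were tested and 0 were called, and Ptprc, the pan-leukocyte marker, was at 4.12 to 13.0 with the mimics and at 4.14 to 18.1 with the control siRNA. Their summed intensity was 1018 to 1191 with the mimics and 1342 to 1438 with the control siRNA, most of it from Cd68, a lysosomal protein gene. Cd68 had 895, 947 and 827 with the mimics, against 1132, 1165 and 1122 with the control siRNA, without overlap (log2 fold change -0.36, limma adjusted p = 0.0979), and it was called lower with the level-dependent robust prior (adjusted p = 0.0110). Itgam, below the filter and near the floor, went the other way without overlap. It had 15.1, 22.3 and 34.8 with the mimics, against 5.01, 9.37 and 11.0 with the control siRNA. Of 7 fibroblast markers 3 were tested and 0 were called. The 7 summed to 264 to 340.0 with the mimics and to 327 to 374 with the control siRNA. The collagen genes Col1a1, Col1a2 and Col3a1 were at 32.2 or less on all arrays. The brightest fibroblast marker, Thy1, had 203, 195 and 153 with the mimics, against 158, 176 and 176 with the control siRNA. Its groups overlapped (log2 fold change 0.10, limma adjusted p = 0.708). The proteoglycan gene Dcn had 54.6, 36.5 and 42.7 with the mimics, against 100.6, 78.8 and 69.4 with the control siRNA, without overlap (log2 fold change -0.90 ± 0.21 SE, limma adjusted p = 0.105). The macrophage sums did not overlap between the groups and the fibroblast sums did, and their part in the result was not tested.

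Genes whose pattern over the 6 arrays was most like that of the 7 were sought among 10551 other genes with a mean log2 intensity of at least 6. The 6 with the highest Pearson correlation with the mean log2 of the 7 were Dynlt3, Micu2, Kbtbd2, Cdkn1a, Foxo1 and Syde1, at 0.998 to 0.999. Their log2 fold changes ran from -1.44 for Syde1 to -0.52 for Foxo1. As many as 562 genes reached 0.95, because 6 arrays in 2 groups leave few distinct patterns, and the correlation describes these arrays only.

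The log2 fold changes of the 7 stayed below 0 under each setting tried. Gbp7 ranged from -2.24 to -1.77 and Irgm2 from -0.53 to -0.38, and the lowest GBP value in size, -1.14 for Gbp2, was still larger in size than the largest IRG value, -0.95 for Irgm1.

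**Figure D5:**
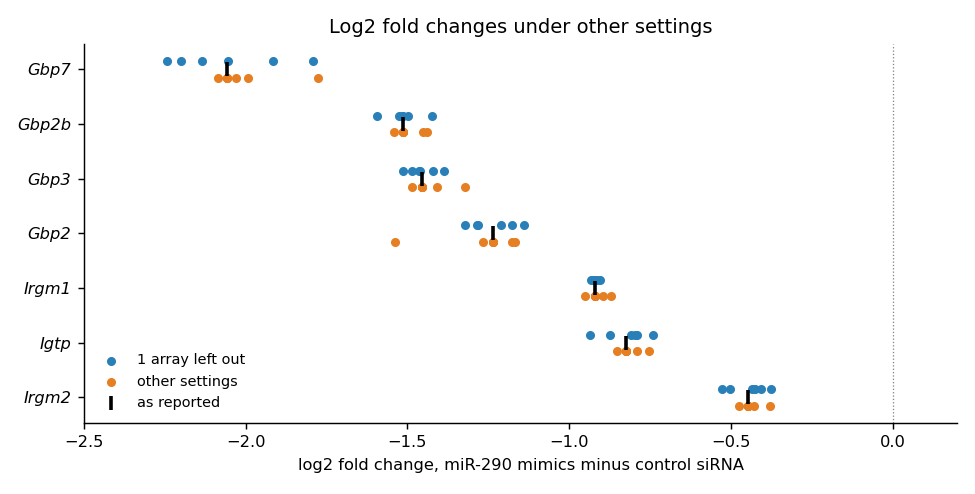
Log2 fold change, miR-290 mimics minus control siRNA (horizontal axis), of the 7 GTPase genes as reported (black bar), with 1 of the 6 arrays left out (blue) and under other settings with the constant prior (orange). Gbp7 lies between -2.24 and -1.77 and Irgm2 between -0.53 and -0.38, and no point reaches 0.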

How the data were processed

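The authors hybridised biotinylated cRNA from total RNA of 6 samples to Affymetrix arrays, per the labels. The deposited values are linear intensities; GCRMA is named in the submitters' processing notes and normally writes log2 values, whereas here the mean of each array without its lowest and highest 2% is about 500, so which tool set the scale is not settled, and neither background treatment nor detection calls are given. Values were log2-transformed with no offset and not normalized again. Of 45101 probe sets, 64 controls and 15870 with a mean log2 under 4 were left out. A linear model of group was fitted to the rest (limma 3.58.1, R 4.3.3; eBayes with a constant prior, 2-sided, no covariates), with Benjamini-Hochberg adjustment over 29167 probe sets; the test was first tested on simulated data. Genes were named through the platform annotation where it gives 1 symbol (34958 probe sets), the brightest probe set standing for the gene. The array files state no genome build; sequences and gene order are from RefSeq, GRCm38.p6. The members, lists, markers and tests were chosen with earlier results of these data known. Named were the 7 members, up to 4 called genes per list (or, with fewer than 2, also the 2 brightest) and the 6 most alike. The motif search and the gene neighbours were added after the data were seen. Alternatives were another prior, median centring, quantile normalization, an offset, other filters, averaging each gene's probe sets, the replicate number as a block, and leaving out each array; the prior and left-out arrays together were added after seeing the data.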

Additional observations from a re-analysis of the deposited data

How the results depend on the processing

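The log2 fold changes of the 7 GTPase genes were negative in every setting run. Their median of -1.24 became -1.18 with quantile normalization, -1.17 with an offset of 16 and -1.46 when the probe sets of each gene were averaged, and was -1.32 to -1.14 with 1 array left out. Calls depended on the setting. Over all probe sets, 276 were lower and 100 higher with the constant prior. The level-dependent robust prior gave 1914 lower and 1379 higher, median centring 170 and 37, the offset 442 and 186, and a filter at a mean log2 of 6 1522 and 851. No filter gave 0 and 0, and of the 7 genes 0 instead of 5. Leaving out 1 array gave 0 lower and 0 to 1 higher with the constant prior, and 1186 to 1600 lower and 730 to 1244 higher with the robust one; of the 7 genes these called 0, and 6 to 7. The same-numbered samples correlated at -0.04, 0.08 and 0.11 in their deviations, so the numbers were not taken as pairs, and with the replicate block 0 probe sets were lower, 0 higher, and 0 of the 7 genes were called. The block, no filter, or a left-out array with the constant prior left 0 lower genes in each list. For the other lists the robust prior, the filter at 6 and the robust prior with an array left out gave 1, 1 and 0 to 1 lower other GTPases (0 as reported), 4, 3 and 3 to 4 for interferon gamma signalling (1), 13, 11 and 10 to 12 for other interferon-gamma-induced genes (6), 4, 4 and 3 to 5 for type I responsive genes (0), and 2, 2 and 2 for the partners (0). Of the partners 1 was higher with the robust prior and 0 to 1 with an array left out as well. The filter at 6 gave 2 for type I signalling (1). The offset gave 2 type I responsive genes and 1 partner, and averaging probe sets gave 1 type I responsive gene. Signal near the floor (the dimmer Gbp7 probe set, Rtp4, Iigp1) could not be separated from background.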

Other observations

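Of 399 tested genes with a core in a promoter window 11 were lower and 0 higher, with a median log2 fold change of -0.02, and 5 of the 11 belong to the 7 GTPase genes. Outside the 7 and the lists, 376 tested genes held a core and 6 of them were lower (1.6%), namely Ctso, Lats2, Ncoa7, Plcd3, Tdrd7 and Uhmk1, named after their values were seen. Of 10652 tested genes without a core outside the lists 137 were lower (1.29%). No test was made of these shares.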
